A study of Homo sapiens with 6 samples.

Results

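Mitochondrial ribosomal proteins, encoded by nuclear genes with the symbols MRPL (large subunit) and MRPS (small subunit), were followed in OVCA432, a human line derived from a high grade serous carcinoma of the ovary. A gene was taken where a probe set of the Affymetrix U133 Plus 2.0 array carried a single MRPL or MRPS symbol followed by a number, pseudogenes and antisense genes being left out. This gave 75 genes, 48 MRPL and 27 MRPS, of the 19775 genes with such a probe set. Where a gene had several probe sets, the one brightest on average over the 6 arrays (in log2) stood for it. All cells were starved of serum for 24 h. The MFAP5 group (3 arrays) was then given recombinant human MFAP5 at 200 ng/mL, a secreted protein of extracellular microfibrils, and the control group (3 arrays) received solvent. RNA of both groups was taken 48 h after that. The series design calls the 3 samples of a group independent. All come from a single cell line, so the p-values measure the spread between samples of that line.

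The mitochondrial ribosome sits in the mitochondrial matrix and translates the few messenger RNAs that mitochondrial DNA still encodes, all of them for membrane subunits of oxidative phosphorylation. Its ribosomal RNAs come from mitochondrial DNA, while its proteins are made in the cytosol and imported. Many of these proteins descend from bacterial ribosomal proteins, and others are found in mitochondria alone. Symbols do not always give the subunit: MRPS18A and MRPS30 carry small-subunit names but lie in the large subunit.

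Signals are MAS5 values, a linear brightness per probe set, which the authors' scaling had set to a common trimmed mean on every array (500.07). A change shared by most transcripts would therefore not be seen. Across probe sets, 2 arrays of the same group had a Pearson r of log2 signal of 0.984 to 0.988, and 2 arrays of different groups one of 0.967 to 0.971. The 3'/5' ratio of the control probe sets, a sign of RNA quality, overlapped between groups for GAPDH (exact two-sided permutation p = 0.5, n = 3 each) and for ACTB (p = 0.6), where 0.1 is the smallest p that 3 against 3 arrays allow. On all 6 arrays each of 11 markers of serous ovarian epithelium was brighter than every one of the 27 control probe sets for Bacillus genes. None of the 3 leukocyte markers measured passed the brightness filter, and of the fibroblast markers COL1A1 alone passed it. Of the 4 endothelial markers CDH5 and VWF passed it, with log2 fold changes of 0.37 and 1.20 (limma adjusted p = 0.457 and 0.141). The summed signal of the 7 fibroblast markers was 269 to 314 in control and 269 to 380 in MFAP5 arrays. For the 4 endothelial markers it was 137 to 208 and 189 to 248, and for the leukocyte markers 22.2 to 127.9 and 70.8 to 135.2. The ovarian markers summed to 95038 to 105633 and 106062 to 113929. Of these 11, 5 rose (MUC16, MSLN, PAX8, KRT7 and EPCAM) and 2 fell (WFDC2 and WT1), and their part in the results was not tested.

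Most mitochondrial ribosomal protein genes were lower with MFAP5, each by a modest amount. Of the 75, 47 fell, 2 rose (MRPS6 and MRPL33) and 26 did not pass the test (limma, adjusted p below 0.05 over all 27307 probe sets tested). The background over the 12216 genes tested was 15.3% lower and 14.6% higher, 29.9% in all. The median log2 fold change of the 75 genes was -0.31, against -0.01 over all genes tested. The estimate was below 0 for 70 of the 75, beside 51.1% of all genes. The 3 MFAP5 values lay below the 3 control values for 56 genes and above them for 2, where the background was 23.6% and 22.3%. All 75 genes were bright: each passed a stricter filter at the 75% quantile of brightness and lay above every Bacillus control on all 6 arrays. Bright genes are called more readily, and among the 7995 genes past that stricter filter 22.6% were lower in a fit of their own. In that fit 52 of the 75 fell and 2 rose. Centring each array on its median signal moved the median of all genes to -0.15, with 1118 genes higher and 3438 lower. The median of the 75 genes was then -0.45, with 69 lower and 1 higher. The background of lower genes was then 28.1%, against 92% of the 75. With centring on hybridisation controls 25 of the 75 were lower (33.3%, beside 8.94% of all genes), and without an intensity trend 30 (40.0%, beside 9.91%). A further setting used only probe sets outside the _s_at and _x_at types, which can share probes between transcripts or genes. It left 42 of the 75 genes, 25 of them lower (59.5%, beside 12.8%). The fold of the 47 ran from 1.18 to 1.49, and their median log2 fold change was -0.35, against -0.41 over all genes called lower.

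**Figure D1:**
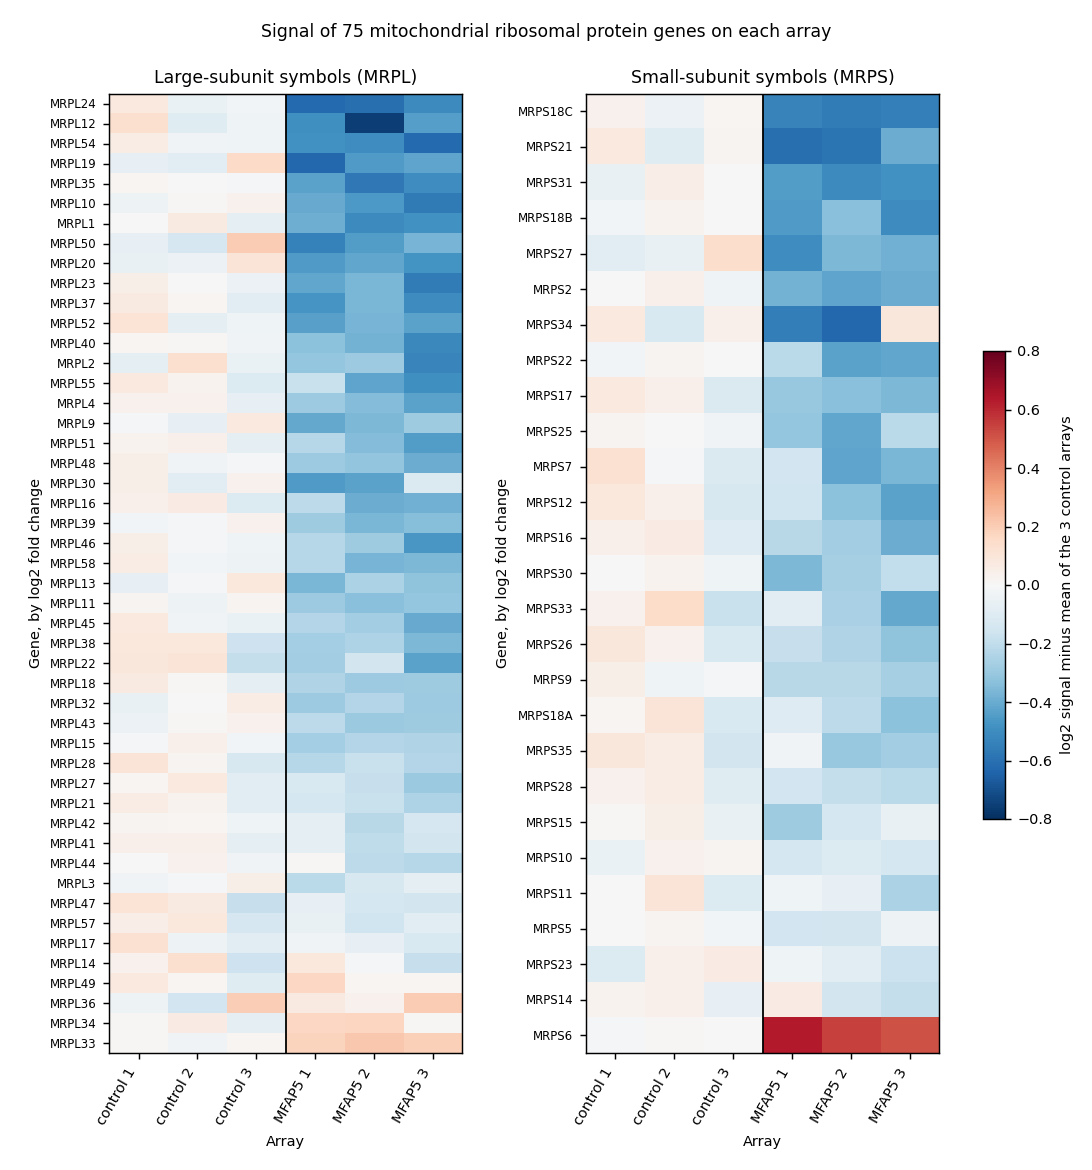
Log2 signal of each of the 75 genes (rows, ordered by log2 fold change) on each of the 6 arrays (columns), minus the mean of that gene's 3 control arrays. Blue is lower and red higher than the control mean. The MFAP5 columns are blue for most rows, and MRPS6 in the last row of the small-subunit panel is the strongest red.

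Taken array by array, the mean log2 signal over the 75 genes was 12.22, 12.21 and 12.16 in control replicates 1 to 3 and 11.96, 11.91 and 11.90 in MFAP5 replicates 1 to 3. The MFAP5 arrays were the 3 lowest. The same mean over all genes tested ran from 9.58 to 9.62 and was slightly higher on the MFAP5 arrays. In such bulk RNA, fewer cells of a kind and less RNA per cell cannot be told apart.

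The start regions of 6 genes are shown before their values, because regulators of mitochondrial biogenesis are known to bind start regions of this kind. NRF1 and the ETS factor GABPA activate many nuclear genes for mitochondrial proteins, YY1 binds near the starts of many housekeeping genes, and MYC binds E-boxes. Each line gives the 200 bases before the gene's start, 5' to 3', from the RefSeq promoter table (GRCh38.p14). Capitals mark matches, on either strand, to the letters CCGGAAG (ETS), GCGCATGCG (NRF1, whose reverse complement holds the shorter core CATGCGC) or CACGTG (E-box). MRPS18C, MRPL20 and MRPL54 fell and were picked because they hold matches. MRPL24, the gene with the largest fall, holds none in these 200 bases, but upstream of them it has the NRF1 core, 250 bases before its start. MRPS18C also has the ETS letters upstream of the printed bases, 222 bases before its start. MRPS6 and MRPL33 are the genes that rose. In the order printed they lie at chr4:83455858-83456057 (plus strand), chr1:1407294-1407493 (minus strand), chr19:3762482-3762681 (plus strand), chr1:156741089-156741288 (minus strand), chr21:34073378-34073577 (plus strand) and chr2:27771519-27771718 (plus strand).
MRPS18C: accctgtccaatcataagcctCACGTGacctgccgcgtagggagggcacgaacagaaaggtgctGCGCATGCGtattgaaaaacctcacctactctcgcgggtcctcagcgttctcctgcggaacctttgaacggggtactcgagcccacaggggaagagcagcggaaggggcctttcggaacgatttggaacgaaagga
MRPL20: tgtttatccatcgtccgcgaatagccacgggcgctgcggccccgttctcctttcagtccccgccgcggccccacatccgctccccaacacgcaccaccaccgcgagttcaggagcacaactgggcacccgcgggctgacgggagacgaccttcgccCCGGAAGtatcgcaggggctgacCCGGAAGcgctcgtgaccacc
MRPL54: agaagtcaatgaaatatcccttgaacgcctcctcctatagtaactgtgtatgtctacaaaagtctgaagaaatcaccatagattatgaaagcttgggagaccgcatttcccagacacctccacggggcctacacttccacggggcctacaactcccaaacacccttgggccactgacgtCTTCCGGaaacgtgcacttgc
MRPL24: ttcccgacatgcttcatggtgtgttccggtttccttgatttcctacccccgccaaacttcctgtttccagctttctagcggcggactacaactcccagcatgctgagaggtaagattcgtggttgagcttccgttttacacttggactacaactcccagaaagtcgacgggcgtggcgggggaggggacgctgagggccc
MRPS6: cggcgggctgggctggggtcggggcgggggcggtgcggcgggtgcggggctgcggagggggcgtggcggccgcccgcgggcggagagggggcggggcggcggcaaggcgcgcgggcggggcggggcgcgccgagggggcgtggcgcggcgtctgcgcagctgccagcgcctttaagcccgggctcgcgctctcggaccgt
MRPL33: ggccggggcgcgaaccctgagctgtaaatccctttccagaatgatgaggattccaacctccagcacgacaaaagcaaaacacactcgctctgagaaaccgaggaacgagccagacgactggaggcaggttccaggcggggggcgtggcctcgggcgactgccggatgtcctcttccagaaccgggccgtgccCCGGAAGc

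Promoters of 67 of the 75 genes were found in the RefSeq table, each 250 bases before to 50 after the start. The ETS letters were in 27 of them (40.3%), beside 19.3% of the 9536 promoters of coding genes past the brightness filter and 14.0% of the 15843 promoters of all coding genes. In 19 of these 27 a match began in the last 60 bases before the start. The YY1 letters AAGATGGCG were in 12 (17.9%), beside 3.97% and 2.66%, and in 9 of the 12 a match began after the start. The NRF1 letters were in 3 (4.48%, beside 3.61% and 2.64%), the NRF1 core in 7 (10.4%, beside 7.35% and 5.69%) and the E-box in 9 (13.4%, beside 10.0% and 8.55%). Every match to the longer NRF1 letters is also a match to the core. Among the genes that fell, 18 of 41 promoters held the ETS letters (43.9%), and among those not called 8 of 24 (33.3%). For YY1 these counts were 7 of 41 (17.1%) and 5 of 24 (20.8%), and for the E-box 4 of 41 (9.76%) and 5 of 24 (20.8%). Of the 67 promoters 24 held none of these letters. A match is a description of letters and shows no binding.

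**Figure D2:**
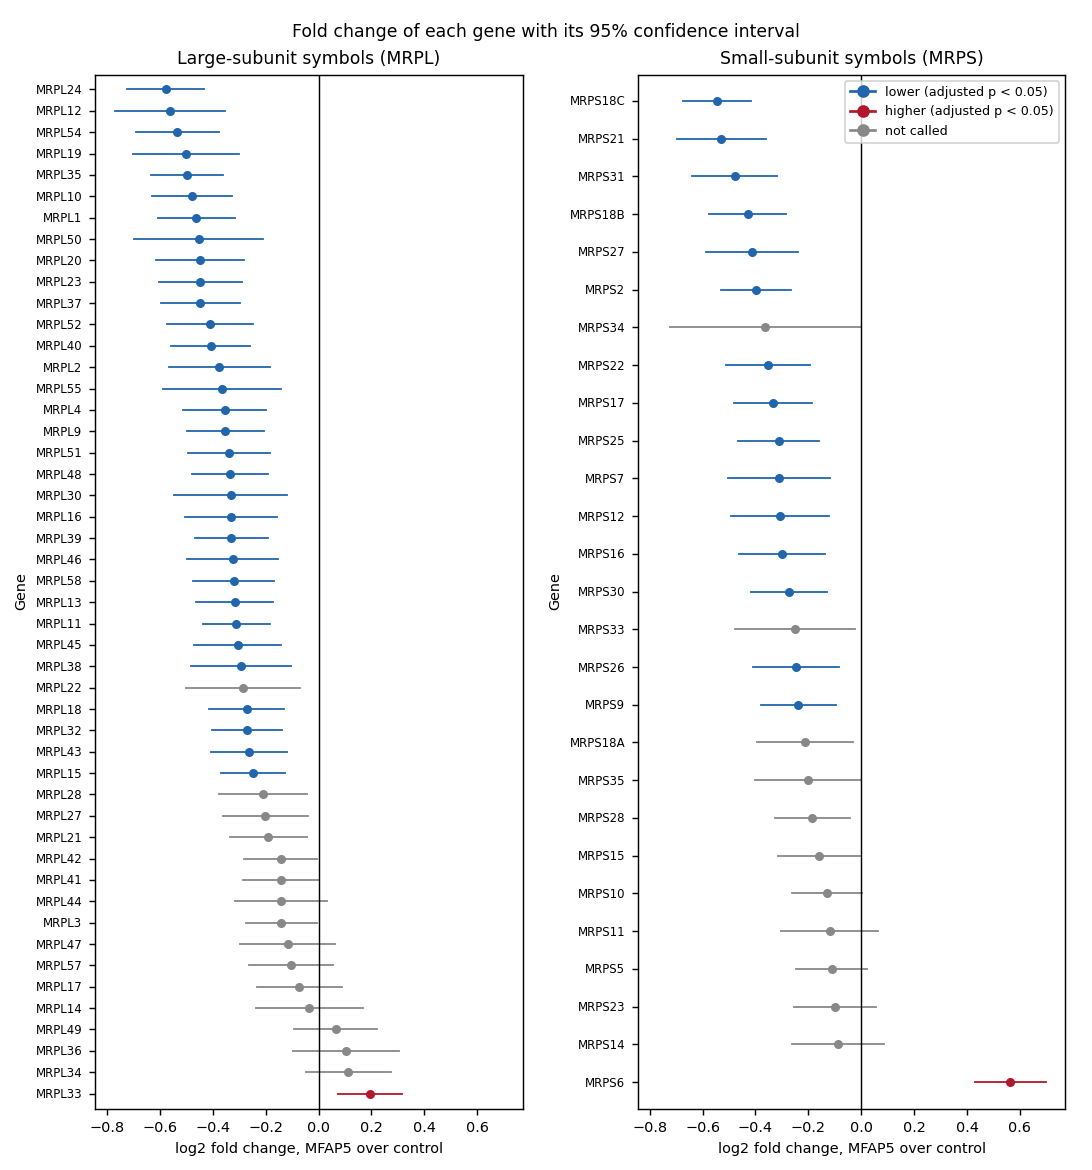
Log2 fold change of each gene, MFAP5 over control (points), with its 95% confidence interval from limma (lines), for MRPL and MRPS symbols. Blue marks genes called lower, red genes called higher and grey genes not called. Of the 75 points, 70 lie left of 0.

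Both subunits took part. Of the 48 MRPL genes 32 fell, 1 rose and 15 were not called (median -0.32). Of the 27 MRPS genes 15 fell, 1 rose and 11 were not called (median -0.27). Sorted by subunit position and origin, 18 of 30 large-subunit proteins of bacterial descent fell (median -0.30), as did 15 of 20 large-subunit proteins found in mitochondria alone (median -0.32). In the small subunit it was 9 of 16 of bacterial descent (median -0.27) and 5 of 9 of the others (median -0.31). Differences between these classes were not tested.

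The largest fall was that of MRPL24, a protein near the exit of the tunnel through which the new chain leaves the ribosome. Its signal was 4727, 4321 and 4423 on the control arrays and 2912, 2958 and 3150 on the MFAP5 arrays. The groups did not overlap, and the fall was 1.49-fold (log2 fold change -0.58 ± 0.07 SE, limma adjusted p = 0.000204). Of other proteins near the exit, MRPL23 fell 1.36-fold (limma adjusted p = 0.00135) and MRPL45, which holds the ribosome to the inner membrane, 1.24-fold (adjusted p = 0.0133). MRPL22, MRPL47 and MRPL17 were not called, with log2 fold changes of -0.28, -0.12 and -0.07 (limma adjusted p = 0.0558, 0.327 and 0.502).

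Proteins of the stalks that guide translation factors and transfer RNA were lower as well. MRPL12, the counterpart of bacterial L7/L12, which also binds the mitochondrial RNA polymerase, had signals of 4773, 4090 and 4260 in control and 3106, 2586 and 3218 with MFAP5. All 3 MFAP5 values were below the control values, a 1.48-fold fall (limma adjusted p = 0.00194), and its second, dimmer probe set fell too (adjusted p = 0.0232). MRPL10, on which MRPL12 sits, fell 1.39-fold (limma adjusted p = 0.000774) and MRPL11, at the stalk base, 1.24-fold (adjusted p = 0.00308). MRPL1, of the opposite stalk, had signals of 5597, 5890 and 5344 in control and 4268, 3932 and 4011 with MFAP5, a 1.38-fold fall without overlap (limma adjusted p = 0.000737).

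Other large-subunit proteins among the 12 largest falls were MRPL54, MRPL19, MRPL35, MRPL50 and MRPL20. MRPL54, found in mitochondria alone, had signals of 2788, 2626 and 2611 in control and 1912, 1896 and 1740 with MFAP5. None of its values overlapped, and it fell 1.45-fold (limma adjusted p = 0.000492). MRPL19, MRPL35 and MRPL20 have bacterial counterparts and fell 1.42-fold, 1.41-fold and 1.36-fold (limma adjusted p = 0.00287, 0.000329 and 0.00201). MRPL50, found in mitochondria alone, had signals of 801, 765 and 965 in control and 578, 615 and 649 with MFAP5. Its groups did not overlap, and it fell 1.37-fold (limma adjusted p = 0.0131). On a dimmer probe set of the other type MRPL35 had a log2 fold change of -0.47, close to the -0.50 of its brightest, with overlapping groups and no call (limma adjusted p = 0.181). MRPL50 had -0.14 there, against -0.45 (adjusted p = 0.707). With the mean of all probe sets of a gene the calls for MRPL19, MRPL20 and MRPL50 were lost, at log2 fold changes of -0.10, -0.37 and -0.26 (limma adjusted p = 0.802, 0.451 and 0.37). That mean took in probe sets below the brightness filter, as all the other probe sets of MRPL20 were.

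The MRPS18 family spans both subunits. Vertebrates have 3 proteins related to bacterial S18, and of these MRPS18A lies in the large subunit. MRPS18C had signals of 6516, 6148 and 6415 in control and 4391, 4310 and 4355 with MFAP5. The MFAP5 values were tight and well below the control values, a 1.46-fold fall (limma adjusted p = 0.000123). The mean of MRPS18B was 5279 ± 91 in control and 3924 ± 240 with MFAP5 (SD, n = 3 each), a 1.35-fold fall by limma (adjusted p = 0.0011). MRPS18A was not called on its brightest probe set (log2 fold change -0.21, limma adjusted p = 0.0837) but fell on the other (log2 fold change -0.31, adjusted p = 0.00925). For MRPS18C the 2 other probe sets were dim and not called, and averaging its probe sets lost the call (limma adjusted p = 0.587).

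MRPS21, the counterpart of bacterial S21, had signals of 5872, 5213 and 5644 in control and 3663, 3721 and 4223 with MFAP5, a 1.44-fold fall without overlap (limma adjusted p = 0.000821). MRPS31, found in mitochondria alone, had a mean of 1603 ± 63 in control and 1150 ± 25 with MFAP5 (SD, n = 3 each). It fell 1.39-fold (limma adjusted p = 0.00111) and was not called when its probe sets were averaged, where the log2 fold change was -0.38 against -0.48 (adjusted p = 0.111). Several small-subunit genes are known from inherited disorders of mitochondrial translation, and those named here were picked from general knowledge after their values were seen. MRPS2 fell 1.32-fold, MRPS22 1.28-fold, MRPS7 1.24-fold, MRPS25 1.24-fold and MRPS16 1.23-fold (limma adjusted p = 0.00104, 0.00524, 0.0251, 0.00887 and 0.0137). All 4 MRPS22 probe sets fell. MRPS14, MRPS23 and MRPS28 were not called, with log2 fold changes of -0.09, -0.10 and -0.19 (limma adjusted p = 0.445, 0.333 and 0.0586). MRPS34 was not called either: its control signals were 2214, 1924 and 2158, and its MFAP5 signals 1430, 1356 and 2232. Only MFAP5 replicate 3 of MRPS34 reached the control range, and the SE of 0.16 was the largest of the 75. Without that array the log2 fold change of MRPS34 went from -0.36 to -0.59, and it was called lower. MRPL58, a peptidyl-tRNA hydrolase built into the large subunit that can free stalled ribosomes, fell 1.25-fold (limma adjusted p = 0.00753).

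MRPS6, the counterpart of bacterial S6, went the other way. Its signals were 4047, 4115 and 4087 in control and 6342, 5953 and 5816 with MFAP5. All 3 MFAP5 values were above the control values, a 1.48-fold rise (log2 fold change 0.56 ± 0.06 SE, limma adjusted p = 0.000137). The call held under all 16 alternatives. In the RefSeq table the span of MRPS6 overlaps that of SLC5A3, which encodes a transporter that carries myo-inositol into cells with sodium, and both begin at the same base, just after the sequence printed above for MRPS6. SLC5A3, singled out after its values were seen, had signals of 1978, 2168 and 2208 in control and 3559, 3566 and 3779 with MFAP5 on its brightest probe set. It rose 1.72-fold there (limma adjusted p = 4.18e-05) and on both other probe sets past the filter (1.80-fold and 2.32-fold, adjusted p = 0.000108 and 0.000456). The 4th SLC5A3 probe set was below the filter, with all 3 MFAP5 values above the control values. Whether the single MRPS6 probe set also reads SLC5A3 transcripts was not tested. In all, 17 of the 75 genes overlap another coding gene in that table, 8 of them among the 47 that fell. They include MRPL24, which overlaps HDGF, and MRPS18C, which overlaps ABRAXAS1. Whether the probe sets of MRPL24 and MRPS18C also read those genes was not tested.

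MRPL33, a small large-subunit protein with a bacterial counterpart, was the other gene that rose. Its signals were 12025, 11701 and 12095 in control and 13487, 13882 and 13608 with MFAP5. The groups did not overlap, but the rise was 1.14-fold (limma adjusted p = 0.0261), and the call was lost under 9 of the 16 alternatives. Leaving out control replicate 1 (adjusted p = 0.0698) or 2 (0.09) ended the call, as did leaving out MFAP5 replicate 1 (0.0514), 2 (0.117) or 3 (0.0758), in each case by limma. MRPL34, MRPL36 and MRPL49 had positive log2 fold changes of 0.11, 0.10 and 0.07 that were not called, and all 3 were below 0 with each array centred on its median. Without control replicate 3 MRPL36 was called higher, at 0.20.

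The probe sets of a gene did not always move together. For MRPS30, which lies in the large subunit, the brightest probe set had signals of 4821, 4902 and 4690 in control and 3747, 3995 and 4192 with MFAP5, a 1.21-fold fall (limma adjusted p = 0.012). A second probe set had 560.5, 542.5 and 529.5 in control and 1025, 947 and 973 with MFAP5, a 1.80-fold rise (limma adjusted p = 9.52e-05). Neither pair of groups overlapped, so these probe sets of MRPS30 went opposite ways. The call on the brightest was lost with centring on hybridisation controls (limma adjusted p = 0.101) and without an intensity trend (0.0647). The third was not called (limma adjusted p = 0.284), and the mean of all 3 was higher with MFAP5 (log2 fold change 0.25, adjusted p = 0.0194). MRPS14 was not called on its brightest probe set and rose on the other (1.27-fold, limma adjusted p = 0.0408). Over the 75 genes there were 59 further probe sets past the filter, for 34 genes. Of these 19 fell, 2 rose and 38 were not called, and 43 of the 59 estimates were below 0. Of the 22 fallen genes with such a probe set, 10 had another that fell, and MRPS30 had another that rose. The chosen probe sets of 46 genes were of the _s_at or _x_at type.

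**Figure D3:**
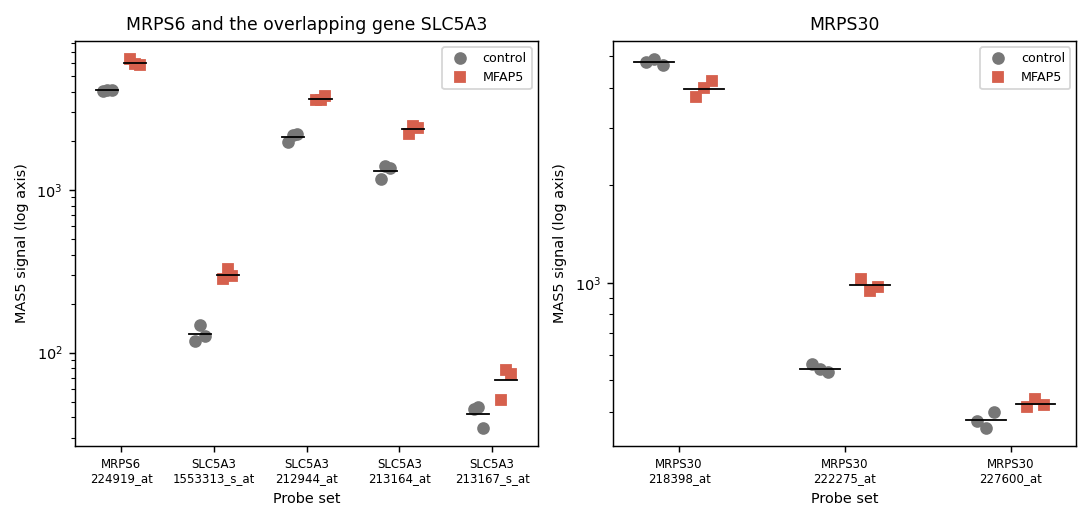
MAS5 signal (log axis) on each array for the probe set of MRPS6, the 4 probe sets of SLC5A3 and the 3 of MRPS30. Circles are control arrays, squares MFAP5 arrays and bars the group means. MRPS6 and all SLC5A3 probe sets are higher with MFAP5, while the brightest MRPS30 probe set is lower and the next is higher.

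The 26 genes not called were mostly on the same side. In 23 the estimate was below 0, in 9 the MFAP5 values lay wholly below the control values, and in 13 the unadjusted 95% interval lay below 0. Their log2 fold changes ran from -0.36 (MRPS34) to 0.11 (MRPL34), and none of their intervals reached below -0.72 or above 0.30. They include MRPL3 (16788, 16982 and 17679 in control and 14777, 15674 and 16256 with MFAP5), in which the groups did not overlap (limma adjusted p = 0.118). MRPL44, an RNase III-like protein, was 1.10-fold lower and not called (limma adjusted p = 0.213), with overlapping groups.

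Proteins that work with this ribosome were read from lists. Of 4 mitochondrial ribosomal proteins with other symbols (DAP3, PTCD3, CHCHD1 and GADD45GIP1) none was called by limma, 0 had an unadjusted p below 0.05, and the smallest adjusted p was 0.222 (PTCD3, log2 fold change -0.15). With centring on array medians 2 of the 4 were lower, and without control replicate 3 there was 1. Of 15 mitochondrial translation factors 8 fell (53.3%, beside 15.3% of all genes) and none rose (median -0.27). With centring on hybridisation controls 6 fell (beside 8.94%), as did 6 without an intensity trend (beside 9.91%). With centring on array medians it was 11 (beside 28.1%). On probe sets outside the _s_at and _x_at types it was 5 of 9 (beside 12.8%). There was 1 factor called higher with quantile normalization, the 75% quantile filter, a replicate block and without MFAP5 replicate 1. MTIF2, the initiation factor that brings the first transfer RNA, had signals of 7331, 7604 and 7381 in control and 5119, 5147 and 5102 with MFAP5, a 1.45-fold fall without overlap (limma adjusted p = 0.000108). TACO1, a translational activator of a cytochrome oxidase subunit, fell 1.35-fold, and MRRF, the ribosome recycling factor, 1.34-fold (limma adjusted p = 0.00696 and 0.00223). With the mean of its probe sets TACO1 was not called, at a log2 fold change of -0.30 (limma adjusted p = 0.661).

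Of 26 assembly factors of the mitochondrial ribosome 9 fell (34.6%, beside 15.3% of all genes) and none rose (median -0.24). The largest falls were those of RPUSD4, TRUB2 and RPUSD3, pseudouridine synthase family members: 1.57-fold, 1.40-fold and 1.40-fold (limma adjusted p = 0.00151, 0.00372 and 0.00119). The count was 4 to 19 over the alternatives. It was 4 with centring on hybridisation controls or no intensity trend, where 8.94% and 9.91% of all genes were lower. With centring on array medians it was 19, beside 28.1% of all genes. It was 5 without control replicate 1 and also without MFAP5 replicate 2 or 3, and 6 without control replicate 2. In those fits 10.1% to 11.3% of all genes were lower. RPUSD3 was not called with the mean of its probe sets, at a log2 fold change of -0.16 (limma adjusted p = 0.374). Of 20 genes for transcription, RNA processing and upkeep of mitochondrial DNA 16 fell (80.0%, beside 15.3% of all genes) and none rose (median -0.34). MTERF1, a transcription termination factor, fell 2.17-fold but was dim and variable, with 274, 226 and 243 in control and 66.7, 125 and 177 with MFAP5 (limma adjusted p = 0.0229). Its groups did not overlap, yet the call was lost without control replicate 1 (adjusted p = 0.076) and without an intensity trend (adjusted p = 0.0676). SSBP1, which coats single-stranded mitochondrial DNA, fell 1.47-fold and the RNA helicase SUPV3L1 1.35-fold (limma adjusted p = 0.00169 and 0.00189). SSBP1 was not called with the mean of its probe sets (limma adjusted p = 0.617), and on its probe set of the other type the estimate was 0.25 (adjusted p = 0.446). The count of fallen genes in this list was 8 of 20 with centring on hybridisation controls, beside 8.94% of all genes. With the mean of all probe sets it was 10 of 19, beside 11.1%. The ribosomal RNAs and messenger RNAs of mitochondrial DNA were not analysed as a list here. ATP6, which mitochondrial DNA encodes, was among all genes tested, but its values are not given.

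**Figure D4:**
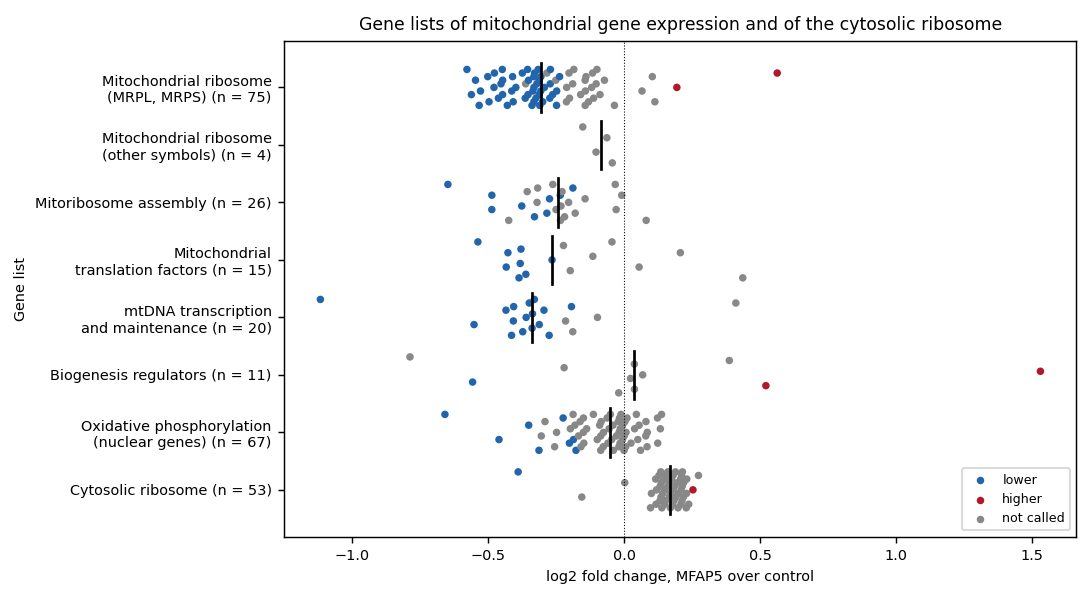
Log2 fold change, MFAP5 over control, of each gene past the brightness filter (points) in 8 lists, with the list's median (vertical bars). Blue points fell, red points rose and grey points were not called. The mitochondrial ribosome has its median at -0.31, nuclear genes of oxidative phosphorylation at -0.05 and the cytosolic ribosome at 0.17.

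Of 11 regulators of mitochondrial biogenesis 2 rose, 1 fell and 8 were not called, a share called of 27.3% beside the background of 29.9%. The coactivator PPARGC1A had signals of 67.5, 87.5 and 84.8 in control and 180, 225 and 299 with MFAP5, a 2.89-fold rise from a low level (limma adjusted p = 0.00095). TFEB, a factor of lysosome biogenesis, rose 1.44-fold (limma adjusted p = 0.00443), and its call was lost with centring on hybridisation controls (adjusted p = 0.0644). MYC had 18327, 16002 and 12665 in control and 11282, 10622 and 9722 with MFAP5. Its groups did not overlap, and it fell 1.47-fold (limma adjusted p = 0.0069). NRF1 and GABPA, whose letters were searched above, were not called, with log2 fold changes of -0.22 and -0.79 (limma adjusted p = 0.23 and 0.0702), and neither was YY1 (-0.02, adjusted p = 0.83).

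Other large assemblies gave other values. Of 67 nuclear subunits of oxidative phosphorylation, which join the products of this ribosome, 8 fell, none rose and 59 were not called (median -0.05). The 11.9% that fell is no more than the background of 15.3%, but some alternatives gave a share above theirs, as listed below. Still, 48 of the 67 estimates were below 0, beside 51.1% of all genes. This count was 39 without control replicate 1 and 67 with centring on array medians. The 3 MFAP5 values lay below the 3 control values for 17 genes and above them for 3, where the background was 23.6% and 22.3%. The median was -0.09 without control replicate 3 and -0.19 with centring on array medians. NDUFB10, of complex I, fell 1.58-fold, and ATP5MC1 and ATP5MC2, which encode the same rotor subunit of ATP synthase, 1.38-fold and 1.28-fold (limma adjusted p = 5.44e-05, 0.0022 and 0.00212). The count of fallen genes in this list was 3 to 33 over the alternatives. It was 33 of the 67 under centring on array medians, beside 28.1% of all genes. Without control replicate 3 it was 17 (beside 15.1%), and with quantile normalization 16 (beside 16.1%). With a replicate block it was 15 (beside 18.0%), and with the mean of all probe sets 8 (beside 11.1%). In each of these settings the share that fell was above that of all genes. With centring on hybridisation controls the count was 3, beside 8.94% of all genes. Without control replicate 1 or 2 or MFAP5 replicate 2 or 3 it was 4, beside 10.1% to 11.3%. ATP5MC2 was not called with the mean of its probe sets, at a log2 fold change of -0.69 (limma adjusted p = 0.144). Of the 80 cytosolic ribosomal proteins listed, only 53 had a probe set with a single symbol and were tested. Of these 53, 1 rose (RPL31, 1.19-fold, limma adjusted p = 0.0479), 1 fell (RPL27A, 1.31-fold, adjusted p = 0.0425) and 51 were not called (median 0.17). Yet the estimate was above 0 for 51 of the 53. The 3 MFAP5 values lay above the 3 control values for 29 and below them for 1, where the background was 22.3% and 23.6%. With quantile normalization 20 of the 53 estimates were below 0, and with centring on array medians 14. The RPL31 call was lost with quantile normalization (limma adjusted p = 0.117). No gene of the list was called higher with centring on array medians or the 75% quantile filter. Both calls were lost with centring on hybridisation controls, without an intensity trend and with no filter. They were also lost without control replicate 1 or 2 or any 1 of the MFAP5 arrays. Other genes of the list were then called in some of these fits: 3 rose without control replicate 2, 1 rose without MFAP5 replicate 1, and 5 rose and 1 fell without control replicate 3. The median of the cytosolic list was 0.03 with quantile normalization and with centring on array medians, where that of the mitochondrial list was -0.29 and -0.45. Without control replicate 3 the cytosolic median was 0.07. The difference between the 2 ribosomes' lists was not tested.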

How the data were processed

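Gene expression was measured in 6 samples of OVCA432 cells on Affymetrix U133 Plus 2.0 arrays, with groups read from the titles of the samples. The authors deposited 1 linear intensity per probe set and array, a MAS5 signal per the submitters' processing notes. Its version is not given in the sources used here. The trimmed mean (2% off each end) was alike on all arrays, and nothing was rescaled. Of 54675 probe sets 62 controls were left out, and those with a mean log2 signal below the median (53.7 as a signal) were removed, which left 27307. Genes were named through the platform annotation, and all 75 were in RefSeq (GRCh38.p14). Groups were compared on log2 signals with limma 3.58.1 in R 4.3.3 (eBayes with an intensity trend, two-sided, Benjamini-Hochberg over the probe sets tested, threshold 0.05; 4 residual and 6.15 prior degrees of freedom). The fit was tested on simulated data.

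The members and lists were chosen with earlier results of these data known. Genes were named by a rule: the 12 largest non-overlapping calls in each direction, members with probe sets called in opposite directions, MRPS18A, MRPS18B, MRPS18C, MRPL12, MRPL58 and MRPS30, and up to 3 called genes per list (2 where none was called). Others were named for their role or count after their values were seen. Alternatives covered scaling, an added constant, the filter, the variance trend, the probe set, a replicate block and each array left out. Promoters were searched for exact letters with no test.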

Additional observations from a re-analysis of the deposited data

How the results depend on the processing

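Of the 47 genes that fell, 44 had a log2 fold change below 0 under each of the 16 alternatives that gave a value. The exceptions came with the mean of all probe sets, where MRPS30 (0.25) was called higher, and MRPL55 (0.08) and MRPS27 (0.41) were not called. That mean took in probe sets below the brightness filter, and the only other probe set of MRPS27 was below it. For MRPS30 and MRPL55 another probe set passed the filter. Among the other lists SSBP1 changed sign on probe sets outside the _s_at and _x_at types (0.25, not called). Of the 47, 15 were called lower under every alternative that gave a value, and 34 without each array in turn. The number that fell was 25 with centring on hybridisation controls, 30 without an intensity trend, 25 with probe sets outside those types (42 genes tested) and 36 to 56 without each array in turn. Over the fits without 1 array, 48.0% to 74.7% of the 75 fell, beside 10.1% to 15.1% of all genes. With the mean of all probe sets 36 of the 75 fell (48.0%, beside 11.1%). The number that rose was 1 with either centring, with no filter and without an intensity trend, and 1 to 3 without each array in turn. The median log2 fold change was -0.45 with centring on array medians, -0.36 with hybridisation controls, -0.27 with the mean of all probe sets and -0.33 to -0.27 without each array. The cause was not tested. Deviations of same-numbered arrays correlated at 0.09, -0.01 and 0.17, and those of differently numbered arrays at -0.18 to 0.10. With 3 arrays in each group these values cannot decide whether the numbers pair the samples. With a replicate block 56 fell (74.7%, beside 18.0% of all genes), 2 rose and the median was -0.31. Of the named members' values, 260 kept their direction and side of the threshold, 19 lost the call, 5 gained it and 1 reversed. Of the counts in the other lists, 164 stayed within 1.5 times and 60 did not. The 3 arrays in each group limit the precision.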
